A study of Homo sapiens with 4 samples.

Results

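The genes described here encode the enzymes that chemically modify and splice transfer RNA (tRNA) in HEK-293, a cell line established from human embryonic kidney that has neuronal features. They were chosen by gene symbol from a table of FPKM values (fragment counts scaled to transcript length and to the mapped fragments of the library), taking the TRMT, TSEN, PUS, DUS1L to DUS4L, NSUN, ADAT, ELAC, CTU and QTRT families together with single genes such as TRIT1, TRDMT1, ELP2, ELP3 and ELP4. The rule found 48 of 24934 gene rows. It uses symbols only, but the families were chosen with earlier results of these data known. The cells received 10 nM of siRNA for 48 h. The first and second libraries came from cells given si4 or si5, independent siRNAs against ZSCAN5A, the third from cells given si1 against ZSCAN5B, and the fourth from cells given a scrambled control. Each siRNA was sequenced in a single library of mRNA. All cells shared the line, the dose and the time, and none was left without siRNA.

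Before a tRNA can serve in translation, its precursor is trimmed at both ends, freed of any intron by the TSEN endonuclease and given many modified bases. Modifications in the body of the molecule, such as methyl groups, pseudouridine and dihydrouridine, act mainly on folding and stability. Those in the anticodon loop, such as the wobble uridine groups made by Elongator and the CTU thiolase or the inosine made by ADAT2 with ADAT3, act on decoding. Not every enzyme chosen by symbol works on tRNA alone: NSUN4 and NSUN5 methylate ribosomal RNA, PUS7 also modifies mRNA, and NSUN5P1 and NSUN5P2 are pseudogene copies of NSUN5, so that reads of the 3 NSUN5 rows may be shared. The tRNAs themselves were not analysed here.

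The siRNA target sequences are given first, because a match to the si1 sequence recurs below at DUS1L, the member with the widest difference. They are written as the mRNA strand, 5′ to 3′, with the 7 bases that pair with the seed of the guide strand (its bases 2 to 8) in capitals.
si4 (ZSCAN5A): cgagaagaggtttACGTGTAa
si5 (ZSCAN5A): aagctagtcatccACAAGAGa
si1 (ZSCAN5B): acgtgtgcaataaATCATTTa
In GRCh37 the si4 target lies on the minus strand at chr19:56733332-56733352 and the si5 target at chr19:56733307-56733327. Both are in exon 6 of the 6 exons of ZSCAN5A, before its 3′ UTR. The si1 target lies at chr19:56701591-56701611 on the same strand, in exon 5 of the 5 exons of ZSCAN5B.

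The control held 2.42 FPKM of ZSCAN5A, si4 and si5 left 0.73 and 0.713, and the level with si1 was 2.53. ZSCAN5B was at 0.0331 FPKM with si4, 0.0663 with si5 and 0.0948 with si1 and at 0.0903 in the control, so the FPKM of the targeted gene was not lower there. Approximately 9.4 and 8.8 fragments stand behind the si1 and control values, and the 95% counting interval of their ratio, 0.346 to 2.80, limits what this check can show. The study also measured this knockdown by qRT-PCR and at the protein level, and those measurements were not used here. The text speaks of the library labelled ZSCAN5B knockdown, or of si1. Steps between low FPKM values put the depths of si4, si5 and si1 at 1.09, 1.54 and 1.02 times that of the control. The study's methods give nearly equal numbers of reads for all samples, which the si5 value does not match. The depths, and the widths of the counting intervals that use them, are therefore approximate. The FPKM values summed to 488036 in the control and to between 537181 and 546239 in the other libraries. A scaling to equal sums would lower every ratio of a siRNA library to the control, and it was not run. It would move members and all genes alike, so the members are described beside all genes. The 7 markers chosen for HEK-293 were all detected, the neuronal and mesenchymal genes NEFL, VIM and SOX11 at 15.2 FPKM or more in every library. The kidney gene PAX2 was lowest, at 1.16 FPKM in the control and 0.584, 0.615 and 0.608 with si4, si5 and si1. LHX1, also of kidney, was at 4.17 in the control and 3.29, 3.31 and 3.28 with the same siRNAs. No other marker of the 7 was below the control in every siRNA library. Of 7 markers of other cell types, COL1A1 of fibroblasts was at 1.10 to 1.85 FPKM and the other 6 (PTPRC, CD3E, ALB, PECAM1, KRT5 and MYH7) stayed at or below 0.0335.

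In the FPKM values as deposited, most tRNA enzyme genes stood slightly above the control in the siRNA libraries. A single gene, DUS1L, stood far below it with si1. The limit used for ratios, 1 FPKM in at least 1 library of each comparison, was met by 47 of the 48 genes. The exception was NSUN7, at 0.396 FPKM in the control and at 0.323, 0.333 and 0.332 with si4, si5 and si1. With the mean of si4 and si5, 36 of the 47 genes were higher than the control and 11 lower, where 46.7% of all 12993 genes tested were higher. The median log2 ratio of the members was 0.12 (quartiles 0.02 and 0.22), and that of all genes −0.02. In the library labelled ZSCAN5B knockdown 39 were higher and 8 lower, against 48.5% of 12921 genes, with a median of 0.11 (quartiles 0.05 and 0.25) beside −0.01 for all genes. The si1 and ZSCAN5A ratios are taken against the same control library, so a low or high value in that library moves both. In bulk RNA, fewer cells of a type and less RNA per cell cannot be told apart.

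**Figure D1:**
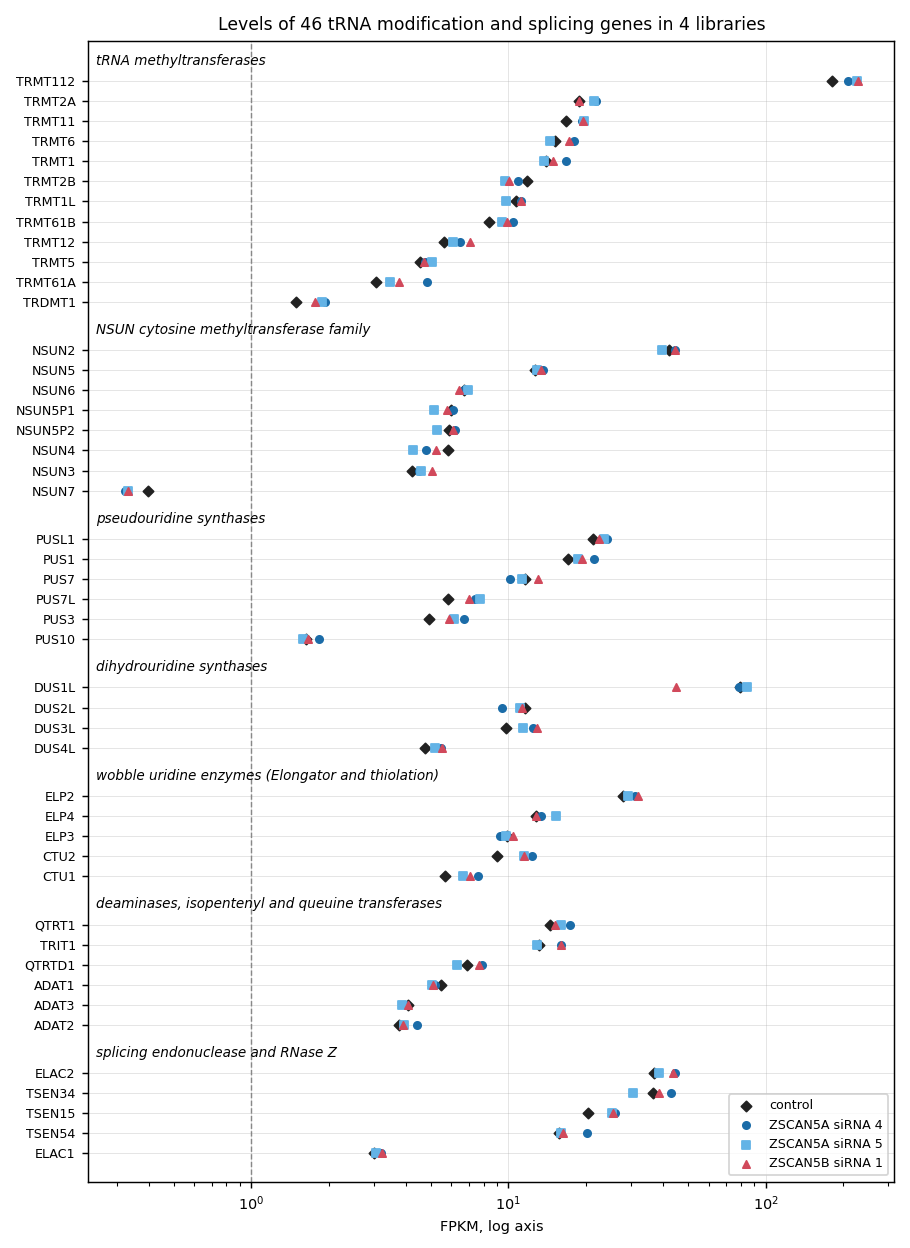
FPKM (log axis) of 46 of the 48 genes, grouped by role, in the control library (diamonds), the ZSCAN5A knockdown libraries si4 (circles) and si5 (squares) and the library labelled ZSCAN5B knockdown, si1 (triangles); each point is 1 library and the dashed line is the 1 FPKM limit. TRMT112 is the most abundant gene in every library, NSUN7 alone lies below the limit, and the si1 point of DUS1L (44.7 FPKM) stands apart from its other 3 points (78.6 to 84.4 FPKM).

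The sizes were small. Past 1.5-fold, no member was called in either direction after ZSCAN5A knockdown, where 0.677% of all genes lay above and 3.11% below. In the library labelled ZSCAN5B knockdown no member lay above 1.5-fold (0.844% of all genes) and DUS1L alone lay below (3.17%). Members were thus not called more often than all genes in either direction. At a lower limit, a log2 ratio of 0.32 in either direction, 7 members were above and 1 below after ZSCAN5A knockdown, where the shares of all genes were 5.14% and 13.4%. With si4 alone 10 were above and 0 below (8.44% and 16.1% of all genes), and with si5 alone 4 above and 1 below (4.34% and 13.1%). The same limit gave 6 above and 1 below with si1, with 6.7% and 12.8% of all genes. Compared with the background, the share of members above this limit was higher and the share below was lower in each of these 4 ratios.

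With 1 control and 1 si1 library, the spread between replicates of those groups is unknown. A model across all genes (limma on log2(FPKM + 1), in which the spread between si4 and si5 stands for every group, although these are different siRNAs and nothing says that the cultures were independent) called 10 of 13078 genes in each comparison at a Benjamini-Hochberg adjusted p of 0.05, and 0 of the 47 members in either. At an unadjusted p of 0.05 it picked 4 members in each, against 12.6% of all genes for ZSCAN5A and 10.6% with si1. They were CTU2, PUS7L, TSEN15 and PUS3 for ZSCAN5A and DUS1L, TRMT112, DUS3L and TSEN15 with si1. The lowest limma adjusted p of a member was 0.385 for ZSCAN5A and 0.468 with si1, each shared by the 4 genes named.

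The displacement was larger with si4 than with si5. With si4, 38 of 47 members were above the control (47.9% of all genes) and the median log2 ratio was 0.20. With si5, 30 of 47 were above (45% of all genes) and the median was 0.06. Both libraries lay above the control in 28 members (34.6% of all genes), both lay below in 7 (41.9%), and the control lay between them in 12 of 47 (3060 of 12993 genes). Directly compared, si4 was above si5 in 36 of 47 members, where 54.6% of all genes were, with a median log2 ratio of 0.13. In 25 members the log2 distance between si4 and si5 was wider than that between their mean and the control. The same count was not made over all genes, so it shows nothing particular to the members. By counting error alone, exact 95% intervals of the ratio lay wholly above 1 in 31 members for si4 (33.9% of all genes), 21 for si5 (29.4%) and 25 for si1 (32.3%). These intervals rest on approximately 350.1 fragments or more per member in the control and leave out the variation between cultures. Fragments were estimated with annotated transcript lengths, which can differ from those behind the FPKM values, so the interval widths are approximate.

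**Figure D2:**
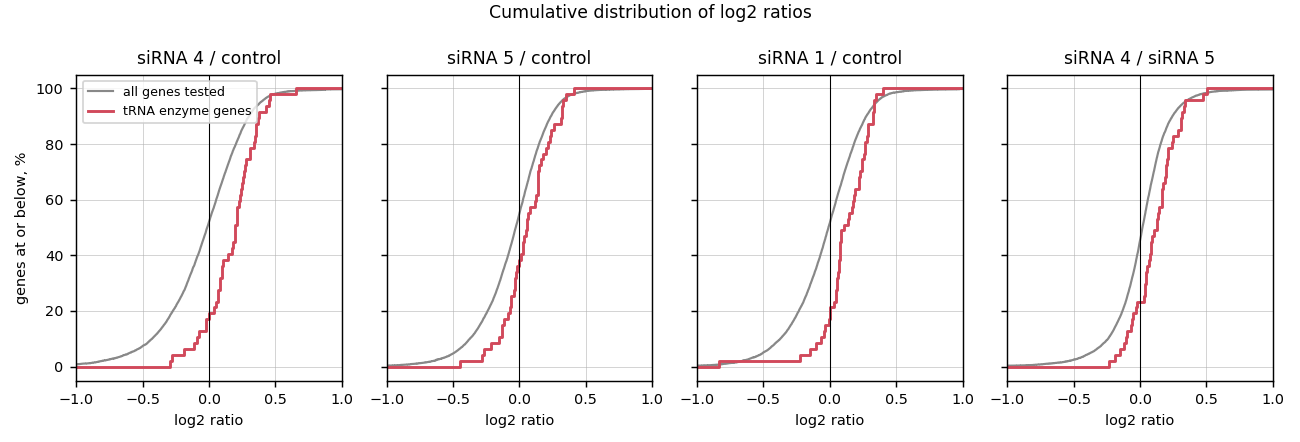
Cumulative share of genes (percent) at or below each log2 ratio for the 47 tRNA enzyme genes (red) and all genes tested (grey), for si4, si5 and si1 against the control and for si4 against si5. The members' curve lies to the right of that of all genes over most of its length in the panels, with medians of 0.20, 0.06, 0.11 and 0.13, and its lowest step in the si1 panel is DUS1L at −0.84.

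DUS1L belongs to the dihydrouridine synthases, which reduce uridines, most of them in the D loop of tRNA. Its level was 78.6 FPKM with si4, 84.4 with si5 and 79.7 in the control, and 44.7 with si1. The si1 library was thus at 56.1% of the control, whereas si4 and si5 lay on either side of it. The log2 ratio with si1 was −0.84 against the control (95% counting interval of the ratio 0.542 to 0.58) and −0.87 against the mean of si4 and si5. DUS1L was the 98th lowest of 12921 ratios to the control and the 25th lowest of 12888 ratios to the ZSCAN5A knockdown. Among the 1462 genes at 50 FPKM or more in the control, 4 genes, DUS1L included, were at or below its ratio to the control. That 50 FPKM limit was not planned in advance. In the limma model the si1 difference had an adjusted p of 0.468 and an unadjusted p of 0.00219.

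In the comparison of the library labelled ZSCAN5B knockdown with the ZSCAN5A knockdown, which does not use the control, DUS1L was the only member past 1.5-fold. Of all genes, 0.683% lay above and 0.628% below that limit. Members were otherwise evenly split, 25 higher and 22 lower (53.8% of all genes were higher), with a median log2 ratio of 0.01. In 4 members, and in 10.1% of all genes, si4 and si5 lay on one side of the control and si1 on the other.

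The closest match of the si1 target in the DUS1L transcript was examined beside that value, after it had been seen. DUS1L spans chr17:80015751-80023680 (GRCh37, minus strand), and the match lies at chr17:80015763-80015783, in the last of its 14 exons, bases 208 to 228 of a 3′ UTR of 609 bases. The si1 target and the DUS1L site are shown with matching bases of the site in capitals.
si1 target: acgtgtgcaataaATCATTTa
DUS1L site: AaGTGaaCAATAAATCATTTc
The site matches 17 of 21 bases, among them all 7 of the seed and an unbroken run of 13. The mismatches, with the base of the siRNA target first and positions counted from its 5′ end, are C2A, T6A, G7A and A21C. The run contains AATAAA, the usual polyadenylation signal, and the site ends 12 bases before the end of the gene in the deposited table, whereas the GENCODE 3′ UTR runs on beyond it. Of 12205 genes tested with a transcript sequence, 14 matched si1 at 17 or more bases and 4 of these included the seed. The other 3, chosen after their values were seen, had log2 ratios with si1 of −0.08 (OSBPL6), −0.36 (UBXN7) and −0.14 (ZNF674). Whether the match has a part in the DUS1L value was not tested.

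A seed match alone was common. The si1 seed match occurred in the 3′ UTR of 10 of 45 members with an annotated 3′ UTR (22.2%) and of 23.6% of all genes. Those 10 members had a median log2 ratio with si1 of 0.07 and the others of 0.15. For si5 the shares were 17.8% and 12%, and for si4 2.22%, a single gene, PUS7, and 3.37%. PUS10, which has a 16-base match to si5 with the seed, was at 1.59 FPKM with si5 and 1.63 in the control.

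The genes beside DUS1L did not share its pattern. GPS1, a COP9 signalosome subunit whose row ends before that of DUS1L begins, was at 96.8 FPKM in the control and at 115, 116 and 111 with si4, si5 and si1. RFNG, the next row on that side, encodes a glycosyltransferase that acts on Notch. It was at 15.3 FPKM with si1 and 16.4 in the control. FASN, the fatty acid synthase gene on the other side, was at 42.7 FPKM with si1 and 57.6 in the control, and it was as low with si4 (42.1) and si5 (38.7).

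**Figure D3:**
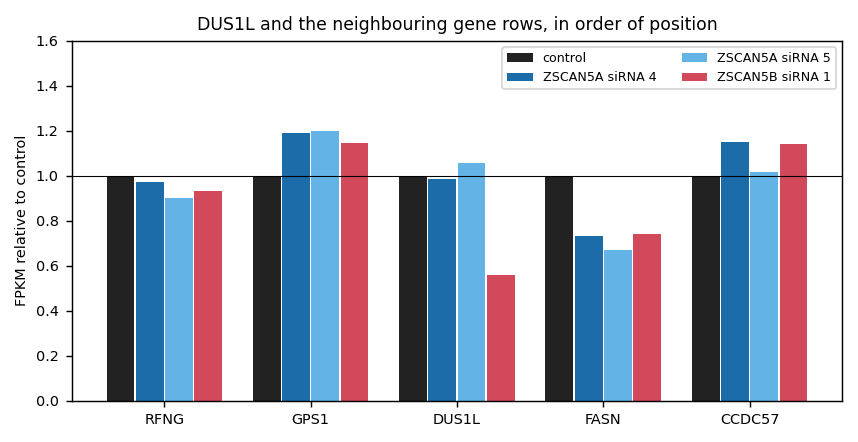
FPKM of DUS1L and the 2 nearest gene rows on each side, divided by the control value of the same gene, in the control, si4, si5 and si1 libraries; each bar is 1 library. The si1 bar of DUS1L is at 56.1% of the control while its si4 and si5 bars are near 1, and no neighbour shows this order.

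The other dihydrouridine synthases did not follow DUS1L. DUS3L, which acts on the variable loop, was at 9.80 FPKM in the control and at 12.4, 11.3 and 13 with si4, si5 and si1. All 3 siRNA values were above the control, and its log2 ratio of 0.40 with si1 was the highest of any member in that library. DUS4L was at 5.47, 5.19 and 5.50 FPKM with si4, si5 and si1 and at 4.72 in the control. DUS2L was at 11.6 FPKM in the control and at 9.47, 11.1 and 11.3 with si4, si5 and si1, so that all 3 lay below the control and si4 lay lowest.

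**Figure D4:**
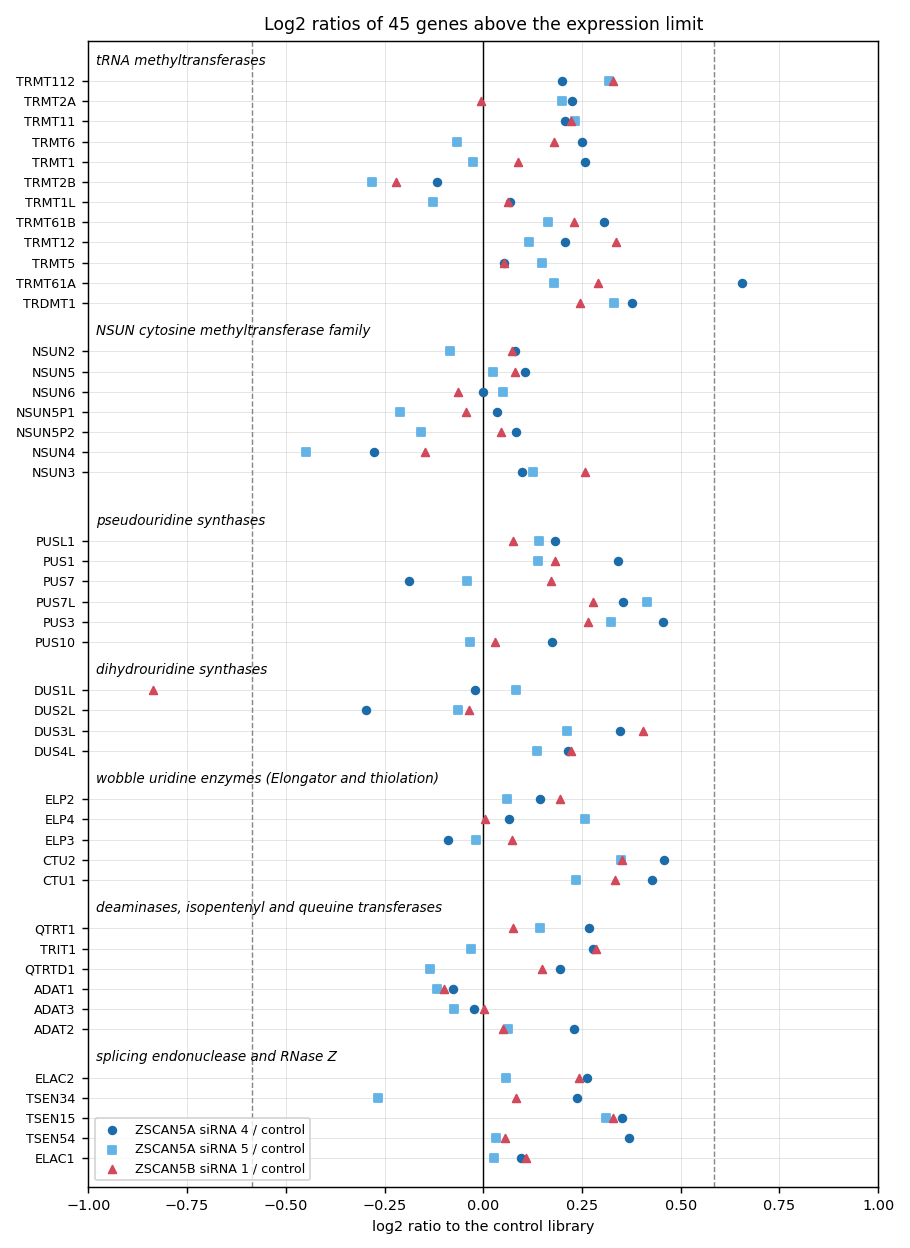
Log2 ratio to the control of 45 of the 47 genes above the limit, grouped by role, for si4 (circles), si5 (squares) and si1 (triangles); each point is 1 library and the dashed lines mark 1.5-fold. Past these lines lie only DUS1L with si1 (−0.84) and TRMT61A with si4 (0.65).

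Among the tRNA methyltransferases, 10 of 12 were above the control in each comparison, beside 46.7% and 48.5% of all genes. The median log2 ratios were 0.19 for ZSCAN5A and 0.20 with si1. The first was 0.22 with si4 alone (11 of 12 above) and 0.16 with si5 alone (8 of 12). TRMT61A is the catalytic subunit of the enzyme that makes 1-methyladenosine at position 58 of tRNA. It was at 3.06 FPKM in the control and at 4.82, 3.47 and 3.74 with si4, si5 and si1. The si4 value passed 1.5-fold (1.57-fold, 95% counting interval 1.41 to 1.76), as did 1.15% of all genes above the control in that library, but the si5 value was at 1.13-fold. Its partner TRMT6 was at 18 FPKM with si4 and 17.1 with si1, and at 14.5 with si5, below the 15.1 of the control. The 2 subunits therefore differed in the order of si5 and control.

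TRMT112, a small protein that activates several methyltransferases, was the most abundant member. It was at 182 FPKM in the control and at 208, 226 and 228 with si4, si5 and si1. All 3 siRNA values lay above the control, with a log2 ratio of 0.26 for ZSCAN5A and 0.33 with si1. Its row overlaps that of ESRRA, and the strand setting used in counting is not given in the sources used here. TRDMT1, the cytosine methyltransferase also known as DNMT2, was at the other end, at 1.49 FPKM in the control and at 1.94, 1.88 and 1.77 with si4, si5 and si1. TRMT12, of the wybutosine pathway, was at 7.10 FPKM with si1, 6.50 with si4 and 6.10 with si5, against 5.63. TRMT2B, which methylates uridine in mitochondrial RNA, was below the control in all 3 libraries, at 10.9 FPKM with si4, 9.69 with si5 and 10.1 with si1 against 11.8.

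The NSUN family had the lowest median log2 ratio of the 7 roles in both comparisons with the control. Of its 7 members above the limit, 3 were higher after ZSCAN5A knockdown (46.7% of all genes). In the library labelled ZSCAN5B knockdown 4 were (48.5%), and the medians were 0 and 0.05 on the log2 scale. The first was 0.08 with si4 alone and −0.08 with si5 alone. NSUN2, the main cytosine-5 methyltransferase of tRNA, was at 42.1 FPKM in the control and at 44.5, 39.7 and 44.3 with si4, si5 and si1, with si5 and the other siRNAs on opposite sides of it. NSUN4 had the lowest ratio of any member after ZSCAN5A knockdown, at 5.81 FPKM in the control and at 4.79, 4.25 and 5.24 with si4, si5 and si1. All 3 siRNA values were below the control, and the log2 ratios were −0.36 for ZSCAN5A and −0.15 with si1. NSUN6, which methylates tRNA-Cys and tRNA-Thr, was at 6.72 FPKM in the control and at 6.72, 6.96 and 6.42 with si4, si5 and si1. The pseudogene NSUN5P1 was at 5.96 FPKM in the control and at 6.11, 5.15 and 5.78 with si4, si5 and si1, and no direction held for both ZSCAN5A siRNAs.

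Pseudouridine synthases turn uridine into its carbon-linked isomer. Of the 6, 5 were above the control after ZSCAN5A knockdown (46.7% of all genes), with a median log2 ratio of 0.20. In the library labelled ZSCAN5B knockdown 6 were above (48.5%), with a median of 0.18. The ZSCAN5A median was 0.26 with si4 alone (5 of 6 above) and 0.14 with si5 alone (4 of 6). PUS3, which acts at the anticodon stem, was at 4.90 FPKM in the control and at 6.72, 6.13 and 5.89 with si4, si5 and si1. PUS7L was at 7.41, 7.73 and 7.04 FPKM with si4, si5 and si1 and at 5.80 in the control. In both genes the 3 siRNA values were above the control, with log2 ratios of 0.39 and 0.38 for ZSCAN5A. The PUS3 row overlaps that of HYLS1. PUS7 had si1 on the other side of the control from si4 and si5, at 10.2 FPKM with si4 and 11.3 with si5, below the 11.6 of the control, and at 13 with si1. PUS10, which acts on the T loop, was among the 4 least abundant members, at 1.63 FPKM in the control and at 1.84, 1.59 and 1.66 with si4, si5 and si1.

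Wobble uridine enzymes divide into Elongator, which starts the side chain at uridine 34 of the anticodon, and the CTU pair, which adds sulphur to the same base. CTU1 was at 5.65 FPKM in the control and at 7.59, 6.64 and 7.11 with si4, si5 and si1. CTU2 was at 12.3, 11.5 and 11.5 FPKM with the same siRNAs and at 9 in the control. All 3 siRNA values were above the control for both subunits, with log2 ratios for ZSCAN5A and si1 of 0.33 and 0.33 for CTU1 and 0.40 and 0.35 for CTU2. The CTU2 row overlaps that of PIEZO1.

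The Elongator subunits ELP2, ELP3 and ELP4 lay closer to the control. ELP2 was at 30.9, 29.2 and 32 FPKM with si4, si5 and si1 against 28. ELP3, the catalytic subunit, was at 9.29 FPKM with si4 and 9.75 with si5 and at 10.4 with si1, on either side of the 9.88 of the control. ELP4 was at 13.4 FPKM with si4, 15.3 with si5 and 12.8 with si1, against 12.8. None of these 3 reached a log2 ratio of 0.20 in either comparison, and the highest was 0.19 (ELP2 with si1).

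Among the deaminases and the isopentenyl and queuine transferases, 4 of 6 were above the control after ZSCAN5A knockdown (46.7% of all genes). The median log2 ratio was 0.09. In the library labelled ZSCAN5B knockdown 5 were above (48.5%), with a median of 0.06. The first direction turned with the siRNA: the median was 0.21 with si4 alone (4 of 6 above) and −0.05 with si5 alone (2 of 6). ADAT2, the catalytic subunit of the wobble adenosine deaminase, was at 3.75 FPKM in the control and at 4.40, 3.92 and 3.88 with si4, si5 and si1. ADAT3, its partner, was at 4, 3.87 and 4.08 FPKM and at 4.07 in the control, and its row lies within that of SCAMP4. ADAT1, which edits adenosine 37 of tRNA-Ala, was at 5.17, 5.03 and 5.09 FPKM with si4, si5 and si1 and at 5.45 in the control, below it in all 3. QTRT1 and QTRTD1 form the enzyme that inserts queuine. QTRT1 was at 14.4 FPKM in the control and at 17.4, 16 and 15.2 with si4, si5 and si1, whereas QTRTD1 was at 6.92 FPKM in the control and at 7.92, 6.31 and 7.67 with si4, si5 and si1. The pair thus differed in the position of si5.

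The 4 subunits of the splicing endonuclease and the 2 RNase Z enzymes, which cut the 3′ trailer, had median log2 ratios of 0.16 after ZSCAN5A knockdown and 0.18 with si1. All 6 were above the control with si1 (48.5% of all genes) and with the mean of si4 and si5 (46.7%). TSEN34, at 0.007 in the latter, fell on the other side with upper-quartile scaling (−0.0026) or the geometric mean (−0.014). The ZSCAN5A median was 0.29 with si4 alone and 0.03 with si5 alone. TSEN15 was at 20.4 FPKM in the control and at 26, 25.3 and 25.6 with si4, si5 and si1. Its 3 siRNA values were close together and above the control, with a log2 ratio of 0.33 in each comparison. TSEN34, a catalytic subunit, was at 36.5 FPKM in the control and at 43, 30.4 and 38.6 with si4, si5 and si1. It had the widest distance between si4 and si5 of any member, 0.50 on the log2 scale, and si5 lay below the control. TSEN54 was at 20.3, 16 and 16.3 FPKM with si4, si5 and si1 and at 15.7 in the control. ELAC2, the long form of RNase Z, was at 44.3, 38.4 and 43.7 FPKM against 36.9, and ELAC1, the short form, at 3.20, 3.05 and 3.23 against 2.99.

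The 12 members not yet described (NSUN3, NSUN5, NSUN5P2, PUS1, PUSL1, TRIT1, TRMT1, TRMT11, TRMT1L, TRMT2A, TRMT5 and TRMT61B) were at 4.20 to 21.4 FPKM in the control. Their log2 ratios ran from −0.03 (NSUN5P2) to 0.24 (PUS1) for ZSCAN5A and from −0.005 (TRMT2A) to 0.29 (TRIT1) with si1, so that none lay far below the control.

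In their level the members resembled other expressed genes. The median of the 47 in the control was 9.88 FPKM, beside 10 for all genes tested, and 48.9% of them were at 10 FPKM or more, beside 50.1%. TRMT112, DUS1L, NSUN2 and ELAC2 were the most abundant in the control and NSUN7, TRDMT1, PUS10 and ELAC1 the least. ELAC2 and TSEN34 (36.5 FPKM) did not differ in that order beyond the spread between si4 and si5, nor did ELAC1 and TRMT61A.

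The displacement was also seen in genes of tRNA maturation that the symbol rule did not take. Of 53 such genes, all of them tested, 43 were above the control after ZSCAN5A knockdown, beside 46.7% of all genes. In the library labelled ZSCAN5B knockdown 44 were above, beside 48.5%. The median log2 ratios were 0.13 (0.20 with si4 alone and 0.08 with si5 alone) and 0.19. None lay past 1.5-fold, where 0.677% and 0.844% of all genes lay above and 3.11% and 3.17% below. These lists were also chosen with earlier results of these data known, and both ratios use the same control library. The lists are not separate from the chosen families either. RG9MTD1, RG9MTD2, RG9MTD3 and CCDC76 are older symbols of TRMT genes, and C17orf81 and C3orf75 are those of Elongator subunits. In the list for tRNA ends, splicing and ligation, all 12 genes were above the control in each comparison. The medians were 0.17 (0.28 with si4 alone and 0.10 with si5 alone) and 0.32. C22orf28, now named RTCB, the ligase that joins tRNA exons, was at 58.3 FPKM in the control and at 81.6, 72 and 81.5 with si4, si5 and si1. Its log2 ratio with si1 was 0.48, the highest of the 53. SSB, the La protein that binds the 3′ end of new Pol III transcripts, was at 184, 156 and 203 FPKM with si4, si5 and si1 against 152. HSD17B10, a subunit of mitochondrial RNase P, was at 142.4, 147 and 139 FPKM against 108, and TRPT1, a tRNA 2′-phosphotransferase, at 11.7, 11.4 and 10.9 against 8.62. The smallest ratios of these 12 genes were those of CLP1, an RNA kinase bound to the TSEN complex, at 7.54, 7.69 and 7.94 FPKM against 7.32, and of ZBTB8OS, the archease that assists the ligase, at 29.4, 26.4 and 27.7 against 25.5.

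Among the other modification genes, 31 of 41 were above the control for ZSCAN5A and 32 with si1 (46.7% and 48.5% of all genes). TRUB2, a mitochondrial pseudouridine synthase, was at 15.7 FPKM in the control and at 22.9, 20.5 and 21.3 with si4, si5 and si1. TYW3, of the wybutosine pathway, was at 17.1, 15.5 and 16.6 FPKM against 12.1. RG9MTD1, now named TRMT10C, methylates mitochondrial tRNA and was at 18.7, 17.6 and 19.9 FPKM against 14.9. URM1, the sulphur carrier of the CTU pathway, was at 27.7, 22 and 23.5 FPKM against 19.1. On the low side, TARBP1, a ribose methyltransferase, was at 17.4 and 17.5 FPKM with si4 and si5 and at 20.5 with si1, against 20.9, and YRDC, which starts the threonyl modification of adenosine 37, was at 21.3, 23.3 and 23.4 against 24.2. The hydroxylase gene TYW5 was at 3.26, 3.32 and 3.05 FPKM against 3.56, METTL1, which makes 7-methylguanosine, at 6.74, 5.93 and 7.10 against 6.85, and GTPBP3, a mitochondrial wobble uridine enzyme, at 17.5, 15.1 and 15.5 against 16.7. TRUB1, the counterpart of TRUB2, was at 27.4 FPKM in the control and at 34.8, 30.3 and 25.4 with si4, si5 and si1.

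Promoter sequence was examined because most members lay above the control. RefSeq (GRCh38.p14) promoters, the 250 bases before and 50 after a start, were matched for 34 of the 48 members, 44 promoters in all. The ETS motif CCGGAAG occurred, on either strand, in 34.1% of them, beside 16.8% of 14790 promoters of genes tested and 10.3% of all 35116. Counted by gene, 13 of 34 members had it, DUS1L among them, beside 2273 of 10007 genes tested. GGGCGG, the SP1 motif, occurred in 63.6%, 66.7% and 45% of the same sets of promoters. The E-box CACGTG was in 9.09%, 9.4% and 7.26%, and the YY1 motif AAGATGG in 4.55%, 6.87% and 5.84%. Neither the NRF1 core GCGCATGCG nor the Pol III B-box core GTTCGANTC was in any of the 44, beside 3.11% and 0.379% of promoters of genes tested. No motif contains the letters of another, and a match is a description of the letters only.

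The 250 bases before the start are shown for TRMT112, the most abundant member, TRMT61A, the highest member after ZSCAN5A knockdown, and DUS3L, the highest with si1. Capitals mark the motifs above, and coordinates are of GRCh38.p14.
TRMT112, chr11:64317560-64317809, minus strand: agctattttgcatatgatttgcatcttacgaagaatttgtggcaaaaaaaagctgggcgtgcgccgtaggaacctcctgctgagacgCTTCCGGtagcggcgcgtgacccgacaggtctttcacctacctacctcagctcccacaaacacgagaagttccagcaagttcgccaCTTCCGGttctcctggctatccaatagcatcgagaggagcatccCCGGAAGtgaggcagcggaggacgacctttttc
TRMT61A, chr14:103528946-103529195, plus strand: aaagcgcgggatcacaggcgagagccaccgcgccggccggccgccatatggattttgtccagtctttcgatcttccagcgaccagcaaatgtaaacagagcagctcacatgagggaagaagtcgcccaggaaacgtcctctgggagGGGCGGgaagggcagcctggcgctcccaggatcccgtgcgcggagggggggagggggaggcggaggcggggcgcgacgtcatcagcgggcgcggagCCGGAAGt
DUS3L, chr19:5791164-5791413, minus strand: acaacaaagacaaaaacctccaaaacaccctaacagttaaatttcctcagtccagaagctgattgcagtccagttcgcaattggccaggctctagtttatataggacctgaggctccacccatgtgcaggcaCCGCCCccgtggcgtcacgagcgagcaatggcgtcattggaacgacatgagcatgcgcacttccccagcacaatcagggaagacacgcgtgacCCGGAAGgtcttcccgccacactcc
The ETS letters occur 3 times in this TRMT112 window and once in each of the others. TRMT112 has a second RefSeq promoter, not shown, with 1 ETS match.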

How the data were processed

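RNA-seq reads were trimmed with Trimmomatic 0.30, aligned to hg19 with TopHat2 2.1.0 and quantified with Cufflinks 2.2.1, per the labels (CASAVA 1.8.2 is also named). The authors deposited 1 table of FPKM values, used here as deposited, with 0 per-sample columns left out. Labels and methods name different stranded mRNA kits. Read counts were not used here. Row starts count from 0 and were raised by 1. The rows of 15 members overlap that of another gene. They are ADAT3, CTU2, DUS2L, DUS4L, ELAC2, NSUN3, NSUN5P1, NSUN5P2, PUS10, PUS3, PUSL1, TRMT112, TRMT1L, TRMT2A and TRMT61B.

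Ratios of FPKM were taken without a pseudocount for rows at 1 FPKM or more in at least 1 library and above 0 on both sides, with si4 and si5 averaged; calls needed 1.5-fold. Because single libraries carry no replicate error, limma 3.58.1 (log2(FPKM + 1), mean-variance trend) served as an alternative only. Procedures were tested on simulated data with changes larger than 1.5-fold in the ZSCAN5A libraries only. Smaller shifts and the si1 comparison were not simulated.

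Depth came from 1745 genes under 0.1 FPKM, of which 72.2% stood in whole-number proportions (numbers to 40, tolerance 0.15%), and from annotated transcript lengths (GENCODE, GRCh37), found for 95.6% of genes tested. These lengths can differ from those behind the FPKM values, as at DUS1L, whose deposited row ends inside its GENCODE 3′ UTR. Exact 95% Clopper-Pearson intervals cover counting error only, and their widths are approximate for that reason and because the depths are estimates.

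Genes named with values are members past 1.5-fold, the 6 highest and 6 lowest ratios per knockdown, the 4 most and least abundant, subunits of the named complexes, and the 3 highest and lowest of the further tRNA genes per knockdown. Members and lists were chosen with earlier results of these data known. The siRNA sequences come from the study's supplement. Values of 2 members counted in the totals are not reported here.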

Additional observations from a re-analysis of the deposited data

Results flagged for a closer look

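In 4 of the 47 genes, si4 and si5 both lay on one side of the control and si1 on the other, as in 10.1% of all genes tested. The difference between si1 and the ZSCAN5A knockdown was not tested in any of them, and all 4 log2 ratios were under 0.32 in size. PUS7 had a log2 ratio of 0.28 between si1 (13 FPKM) and the mean of si4 and si5. ELP3 had a log2 ratio of 0.13 (10.4 FPKM with si1). TRMT2A, which methylates uridine 54, had a log2 ratio of −0.22, with 18.8 FPKM in the control and 22, 21.6 and 18.7 with si4, si5 and si1. ADAT3 had a log2 ratio of 0.052. The si1 values of TRMT2A and ADAT3 lay next to the control, at log2 ratios of −0.005 and 0.003, and each changed side under a scaling: TRMT2A was at 0.0047 with median-ratio and ADAT3 at −0.011 with upper-quartile scaling.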

How the results depend on the processing

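The count of members past 1.5-fold depended on the fold limit. After ZSCAN5A knockdown it was 0 and became 8 at a log2 limit of 0.32. It ranged from 0 (si5 alone) to 1 (si4 alone, TRMT61A) when a ZSCAN5A library was left out. With si1 it was 1 and became 7 at a log2 limit of 0.32, 0 at 2-fold, 0 by limma at an adjusted p of 0.05, and 0 without DUS1L, a setting chosen after seeing the data. Between si1 and the ZSCAN5A knockdown it was 1 and became 0 at 2-fold. The median log2 ratio of members after ZSCAN5A knockdown was 0.06 with si5 alone and 0.20 with si4 alone, and between si1 and the ZSCAN5A knockdown it was 0.08 and −0.05. Its other settings were limits on expression, pseudocounts, median-ratio and upper-quartile scaling, geometric mean, overlapping rows, pseudogenes and transcript length. They moved each median by less than 0.10, the SD of the si4 and si5 medians. Over them the ZSCAN5A median ran from 0.11 to 0.15 and the si1 median from 0.08 to 0.14. That SD is nearly as large as these medians, and for si1 it is a spread of neither side. Staying under it therefore says little of stability. With 2 libraries, leaving out either cannot move a single gene by more than their SD, so that check says nothing of stability. Of 517 alternatives for single members, 8 moved by more than that SD. The 517 include the runs without a library and the geometric means, neither of which could pass it. For the si1 ratios that SD is a spread of neither si1 nor the control. The count of 8 is therefore no measure of stability. No paired analysis was possible because the control and si1 have 1 library each. The least covered member above the limit had approximately 350.1 fragments in the control, and the spread between replicates of the control and si1 is unknown.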

Other observations

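Over all genes tested, the median log2 ratio with si1 was −0.06 for the 2794 genes with the si1 seed match in the 3′ UTR and 0.01 for the others. The same medians were −0.29 and −0.0047 for si4 (399 genes with the match) and −0.10 and −0.01 for si5 (1423 genes). Among the tRNA enzyme genes, the 8 with the si5 match had a median of 0.09 and the others of 0.06, an order opposite to that over all genes; the si1 order was the same in both sets, 0.07 with and 0.15 without the match in the members.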
